A study of Homo sapiens with 20 samples.

Results

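WNT4, another WNT ligand (WNT5A), 3 Frizzled receptors (FZD1, FZD2 and FZD7), the coreceptor LRP6 and 3 genes tied to the nuclear response (AXIN2, TCF7L2 and LEF1) were followed in SUM44, an established breast cancer line from an invasive lobular carcinoma that expresses the estrogen receptor. Members were taken by gene symbol, from probe sets whose annotation names that gene alone. Of the 9 genes, 8 were measured, by 19 probe sets, among 11963 genes in all; AXIN2 was not analysed here. A gene with several probe sets is represented by its brightest one on average, and the others were checked. The study asked how estradiol (E2) changes gene expression in this line.

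All 20 arrays came from cells that had been without hormone for 3 days, in serum stripped with charcoal. The serum concentration differs between the series text and the sample text. One group of 4 arrays was taken at 0 h, before anything was added. The 4 others, of 4 arrays each, received 1 nM E2 or the vehicle, 0.01% ethanol, for 3 h or for 24 h. The series text calls the replicates biological, and all come from 1 cell line. Arrays were grouped by their titles, which for E2 at 24 h conflict with a treatment field that reads baseline.

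WNT proteins are secreted lipid-modified ligands that bind Frizzled receptors on the cell surface. Together with LRP5 or LRP6 as coreceptor, a Frizzled receptor bound by WNT stops the destruction complex from degrading beta-catenin, which then acts in the nucleus through TCF and LEF proteins. Other ligands, with WNT5A as the classical example, signal mainly without beta-catenin, through planar polarity and calcium routes. In the mammary gland, Wnt4 acts downstream of progesterone in ductal side branching.

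Promoter sequence is given for the ligand that rose most with E2 (WNT4), for a receptor whose E2 effect changed sign between the times (FZD1) and for a gene whose main probe set passed no test (LEF1). Each line is the 250 bases before a RefSeq transcription start in GRCh38.p14, written 5′ to 3′ on the gene's strand, with motif matches in capitals. The WNT4 stretch is chr1:22143098-22143347 on the minus strand, the FZD1 stretch chr7:91264183-91264432 on the plus strand and the LEF1 stretch chr4:108166302-108166551 on the minus strand. The LEF1 start lies inside the gene's annotated span.
WNT4: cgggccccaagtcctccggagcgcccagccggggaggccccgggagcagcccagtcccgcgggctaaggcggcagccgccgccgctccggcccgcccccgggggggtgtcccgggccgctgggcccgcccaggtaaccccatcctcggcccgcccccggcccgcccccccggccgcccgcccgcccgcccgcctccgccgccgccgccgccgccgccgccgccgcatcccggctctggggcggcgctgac
FZD1: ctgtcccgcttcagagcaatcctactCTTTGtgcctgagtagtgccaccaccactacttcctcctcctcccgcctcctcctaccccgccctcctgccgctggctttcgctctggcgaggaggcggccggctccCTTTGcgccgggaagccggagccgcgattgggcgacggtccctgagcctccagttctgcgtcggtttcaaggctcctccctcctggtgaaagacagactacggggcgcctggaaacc
LEF1: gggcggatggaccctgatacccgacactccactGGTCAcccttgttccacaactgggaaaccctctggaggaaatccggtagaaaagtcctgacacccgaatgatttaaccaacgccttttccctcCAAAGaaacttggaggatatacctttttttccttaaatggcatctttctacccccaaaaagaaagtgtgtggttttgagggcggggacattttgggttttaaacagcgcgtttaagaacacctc

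The motifs searched on both strands were the full estrogen response element GGTCANNNTGACC, its half-site GGTCA, which is part of the full element, and the TCF/LEF core CTTTG. The search used windows that run on for 50 bases past the start. The full element was in 0.057% of all 35116 windows in the table and in 0 of the 8 windows of these genes, which covered 5 of them. In the table as a whole, 37.4% of windows held the half-site and 47.5% the core. The WNT4 window held none of the 3 motifs and was 85.7% G or C, against a median of 58.7% over all windows. FZD1 had 2 cores in its window, and LEF1 had 1 half-site and 1 core. A match here is only a description of the letters.

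WNT4 and FZD7 rose several-fold within 3 h of estradiol, and both were still raised at 24 h, by less. WNT5A and FZD1 were lower with E2 than with vehicle at 3 h, and for both the vehicle arrays themselves had moved above the 0 h arrays by then. FZD2, at a low level, was also lower with E2 at 3 h, and its vehicle arrays overlapped the 0 h arrays. TCF7L2 fell at 24 h, and LRP6 and LEF1 passed no test of E2 against vehicle with their main probe sets. Values are log2 expression, so a difference of 1 is a doubling; tests are limma fits with Benjamini-Hochberg adjustment over all 11963 genes, and ± after a change is a standard error. A gene is called where the adjusted p is under 0.05, and is named dim where its level lies below 6.11, under which the lowest 25% of genes fall.

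**Figure D1:**
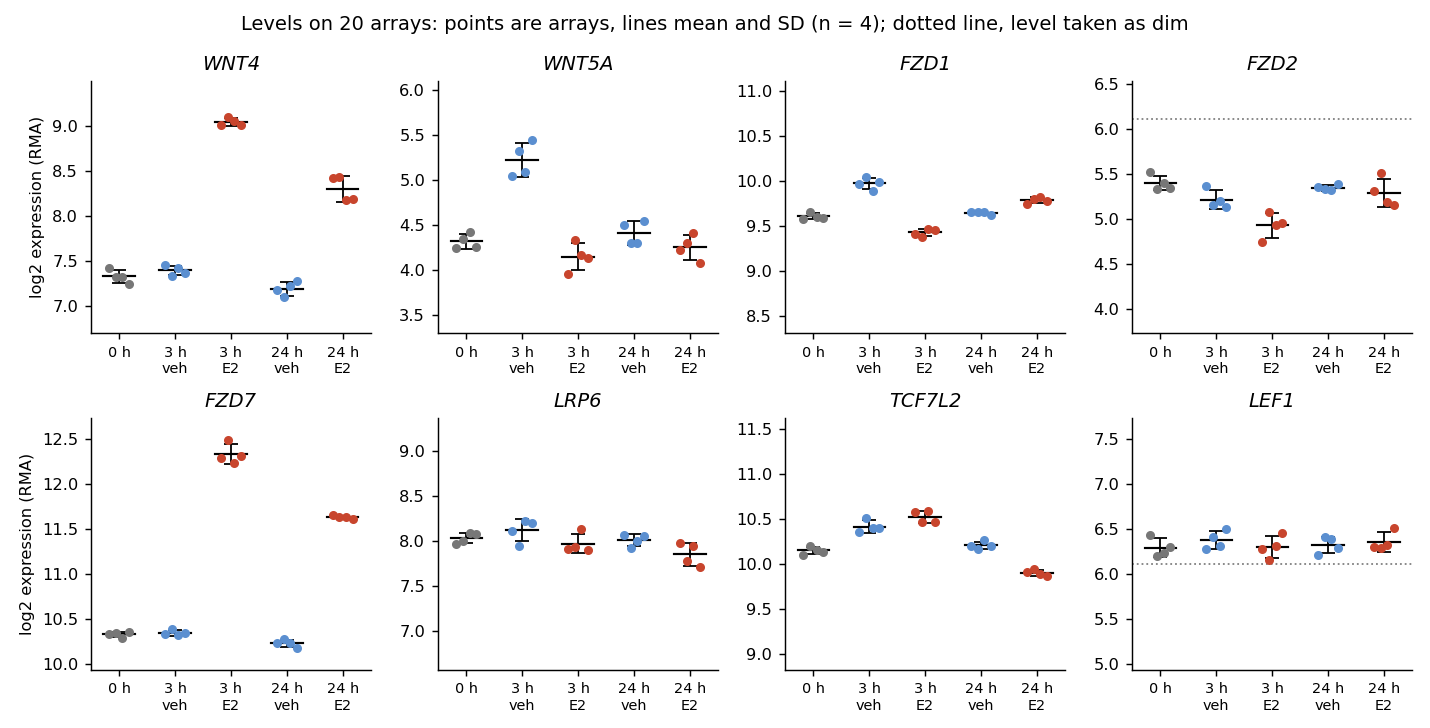
Log2 expression of the 8 measured genes in the 5 groups, 1 point per array with the mean and SD of 4 arrays; every panel spans the same range of log2 units, and the dotted line is the dim level of 6.11. WNT4 and FZD7 stand above all other groups on the E2 arrays at both times, while WNT5A is raised on the 3 h vehicle arrays alone.

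WNT4, the ligand with the largest response, lies on chromosome 1 from 22117313 to 22143097 in GRCh38.p14. Its level was 7.42, 7.32, 7.32 and 7.24 on the 0 h arrays and 7.45, 7.33, 7.42 and 7.36 on the 3 h vehicle arrays. With E2 at 3 h it was 9.01, 9.10, 9.05 and 9.01. Every E2 array lay over 1 log2 unit above every vehicle array, and the vehicle arrays overlapped the 0 h arrays. At 24 h the vehicle arrays read 7.17, 7.09, 7.22 and 7.27 and the E2 arrays 8.42, 8.43, 8.17 and 8.18. The groups again did not overlap, and the E2 arrays at 24 h lay below those at 3 h.

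The rise of WNT4 with E2 was 1.65 ± 0.06 at 3 h, or 3.14-fold (limma adjusted p = 1.42e-14), and 1.11 ± 0.06 at 24 h, or 2.16-fold (limma adjusted p = 5.41e-12). The effect was smaller at 24 h by 0.54 ± 0.08 (tested as an interaction in limma, adjusted p = 3.07e-05). That narrowing came with lower E2 arrays, which fell by 0.74 between 3 h and 24 h (limma adjusted p = 2.7e-09), while the vehicle arrays fell by 0.20 (limma adjusted p = 0.0118). WNT4 is measured by 1 probe set, so no second probe set could be set beside it. In array data of a whole culture, a change in the number of expressing cells and a change of RNA per cell cannot be told apart.

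WNT5A, the ligand best known for signalling without beta-catenin, was dim in every group. On the main probe set the 0 h arrays read 4.24, 4.35, 4.42 and 4.26, and the 3 h vehicle arrays read 5.05, 5.32, 5.09 and 5.44. The 3 h E2 arrays read 3.96, 4.33, 4.17 and 4.13. Every 3 h vehicle array was above every 0 h array, whereas the E2 arrays overlapped the 0 h arrays. At 24 h the vehicle arrays were back at 4.50, 4.30, 4.30 and 4.55 and overlapped both the 0 h arrays and the E2 arrays, which read 4.22, 4.30, 4.41 and 4.08.

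Against vehicle, WNT5A was lower with E2 at 3 h by 1.08 on the log2 scale (change -1.08 ± 0.09, limma adjusted p = 1.32e-08), and at 24 h the change of -0.16 ± 0.09 did not pass (limma adjusted p = 0.177; 95% interval -0.36 to 0.04). The vehicle arrays rose by 0.91 ± 0.09 from 0 h to 3 h (limma adjusted p = 7.42e-07) and fell by 0.82 from 3 h to 24 h (limma adjusted p = 1.6e-06). The E2 arrays differed by 0.10 between the times, which did not pass (limma adjusted p = 0.415). A second probe set gave a smaller change at 3 h, -0.23 ± 0.07, which was called in the fit over all probe sets (limma adjusted p = 0.0186). Its vehicle arrays also rose from 0 h to 3 h, by 0.24 (limma adjusted p = 0.0271). The difference between the E2 effects was 0.92 ± 0.13 on the main probe set (limma adjusted p = 1.52e-05) and 0.08 on the second, where it was not called (limma adjusted p = 0.635).

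Of the receptors, FZD7 gave the largest change, on chromosome 2 from 202033855 to 202038441. FZD7 encodes a Frizzled receptor that can act in both beta-catenin and polarity signalling. It read 10.33, 10.34, 10.29 and 10.35 at 0 h and 10.33, 10.39, 10.32 and 10.34 with vehicle at 3 h. With E2 for 3 h it read 12.29, 12.49, 12.23 and 12.31. The E2 arrays were all above the vehicle arrays, which overlapped the 0 h arrays. At 24 h it read 10.23, 10.28, 10.23 and 10.18 with vehicle and 11.65, 11.63, 11.63 and 11.61 with E2, again without overlap.

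FZD7 rose with E2 by 1.98 ± 0.04 at 3 h, 3.95-fold (limma adjusted p = 5.76e-18), and by 1.40 ± 0.04 at 24 h, 2.64-fold (limma adjusted p = 1.02e-15). A second probe set gave 2.08 and 1.46. The effect was smaller at 24 h by 0.58 ± 0.06 (limma adjusted p = 1.33e-07), and the E2 arrays fell by 0.70 between the times (limma adjusted p = 3.29e-11). Vehicle arrays fell by 0.12 between 3 h and 24 h (limma adjusted p = 0.0365). That small vehicle change was not called in 6 of the 8 fits that leave out 1 array (array A, B or D of the 3 h vehicle group, or A, C or D of the 24 h vehicle group), nor with array weights (limma adjusted p = 0.0526), while the second probe set gave -0.19 (limma adjusted p = 0.000635).

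FZD1, another Frizzled receptor, changed in opposite directions at the 2 times. It read 9.58, 9.66, 9.60 and 9.59 at 0 h, 9.97, 10.04, 9.89 and 9.99 with vehicle at 3 h, and 9.41, 9.38, 9.47 and 9.45 with E2 at 3 h. All 3 h vehicle arrays were above the 0 h arrays and all 3 h E2 arrays were below them. At 24 h the vehicle arrays read 9.65, 9.66, 9.65 and 9.62, overlapping 0 h, and the E2 arrays 9.74, 9.80, 9.82 and 9.78, above both. The E2 change was -0.54 ± 0.03 at 3 h (limma adjusted p = 4.26e-11) and 0.14 ± 0.03 at 24 h (limma adjusted p = 0.00121), and the difference of 0.69 ± 0.05 was called (limma adjusted p = 4.88e-10). A second probe set gave -0.32 at 3 h and 0.23 at 24 h, both called.

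FZD1 also moved without E2. Its vehicle arrays rose by 0.36 ± 0.03 from 0 h to 3 h (limma adjusted p = 1.24e-07) and fell by 0.33 from 3 h to 24 h (limma adjusted p = 2.57e-07). The E2 arrays rose by 0.36 between the times (limma adjusted p = 1.72e-08). On its second probe set the vehicle rise was 0.23 and was called, whereas the E2 rise of 0.17 was not (limma adjusted p = 0.0644).

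FZD2, a Frizzled receptor used by WNT5A among other ligands, was dim throughout. With vehicle at 3 h it read 5.37, 5.16, 5.20 and 5.13, and with E2 4.75, 5.08, 4.93 and 4.96. The 2 groups did not overlap, and the 0 h arrays, at 5.34 to 5.52, were above the E2 arrays. The change of -0.28 ± 0.07 passed (limma adjusted p = 0.00536). At 24 h the vehicle and E2 arrays overlapped and the change of -0.06 ± 0.07 did not pass (limma adjusted p = 0.584), and the difference between the effects was not called (0.23, limma adjusted p = 0.106; 0.0479 without array B of the 3 h E2 group). The E2 arrays rose by 0.37 from 3 h to 24 h (limma adjusted p = 0.00041). In vehicle from 0 h to 3 h the change was -0.19 and was not called (limma adjusted p = 0.0903). Without array A of the 3 h vehicle group that vehicle change was -0.24 and was called (limma adjusted p = 0.0361).

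LRP6, the coreceptor that joins a Frizzled receptor to start beta-catenin signalling, moved little. Group means lay between 7.85 and 8.12, and neighbouring groups overlapped throughout. The E2 change was -0.15 ± 0.07 at 3 h (limma adjusted p = 0.108; 95% interval -0.29 to -0.01) and -0.16 ± 0.07 at 24 h (limma adjusted p = 0.0645; 95% interval -0.30 to -0.02). These sizes are close to the threshold: without array B of the 3 h vehicle group or array C of the 3 h E2 group, the 3 h change was called (limma adjusted p = 0.0209 and 0.0268). At 24 h it was called without array B of the vehicle group or without array A or C of the E2 group (limma adjusted p = 0.046, 0.0273 and 0.0452). A second LRP6 probe set gave -0.13 at 3 h, not called, and -0.22 at 24 h, which was called (limma adjusted p = 0.00583).

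**Figure D2:**
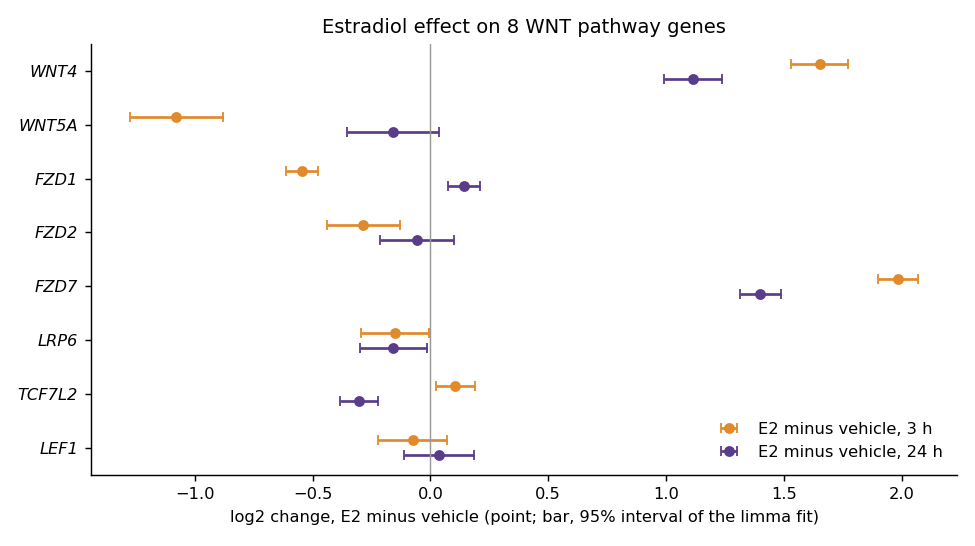
Log2 change of the 8 genes with E2 against vehicle at 3 h (orange) and 24 h (purple), as the limma estimate with its 95% interval. WNT4 and FZD7 lie above 1 at both times, and WNT5A and FZD1 lie below 0 at 3 h, where WNT5A's change was -1.08.

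Among the nuclear proteins, TCF7L2, the TCF factor that binds beta-catenin at WNT-responsive genes, was lower after 24 h of E2. It read 10.21, 10.17, 10.27 and 10.20 with vehicle and 9.92, 9.95, 9.89 and 9.87 with E2, and the E2 arrays were also below the 0 h arrays, which read 10.11, 10.21, 10.16 and 10.14. The change was -0.30 ± 0.04 (limma adjusted p = 2.47e-06), and all 6 TCF7L2 probe sets were called lower, by changes from -0.41 to -0.19. Among them, the sets at -0.37 and -0.38 may cross-hybridise by their names. At 3 h vehicle arrays read 10.36, 10.52, 10.40 and 10.40 and E2 arrays 10.58, 10.47, 10.59 and 10.47, and the 2 groups overlapped. That change of 0.11 ± 0.04 only just passed (limma adjusted p = 0.0455).

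The 3 h change of TCF7L2 was not called without array A, C or D of the vehicle group or without array A or C of the E2 group (limma adjusted p = 0.0979 to 0.148). Nor was it called when the 8 arrays compared were fitted alone (limma adjusted p = 0.142), and 2 of the 6 probe sets were called in the fit over all probe sets. Over all alternatives its adjusted p ran from 0.00843 to 0.617. Between the times the effect fell by 0.41 ± 0.06 (limma adjusted p = 7.29e-06), with 6 of 6 probe sets called. TCF7L2 moved without E2 as well: from 0 h to 3 h the vehicle arrays rose by 0.27 ± 0.04 (limma adjusted p = 4.73e-05; 4 of 6 probe sets called), and they fell by 0.21 from 3 h to 24 h (limma adjusted p = 0.000366; 5 of 6). The E2 arrays fell by 0.62 between the times (limma adjusted p = 1.12e-10; 6 of 6).

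LEF1, a sister factor of TCF7L2 and itself a target of the pathway, varied least of the 8 genes, with group means between 6.30 and 6.38 just above the dim level. All 5 groups overlapped. The E2 change was -0.08 ± 0.07 at 3 h (limma adjusted p = 0.488; 95% interval -0.22 to 0.07) and 0.04 ± 0.07 at 24 h (limma adjusted p = 0.721; 95% interval -0.11 to 0.18). Of its 2 other probe sets, both dim, 1 was higher with E2 at 24 h by 0.62 ± 0.14 (limma adjusted p = 0.00168), with arrays at 4.39 to 4.99 against 3.80 to 4.14 with vehicle. The 3 probe sets therefore disagree at 24 h, and their average rose by 0.23 (limma adjusted p = 0.00952).

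**Figure D3:**
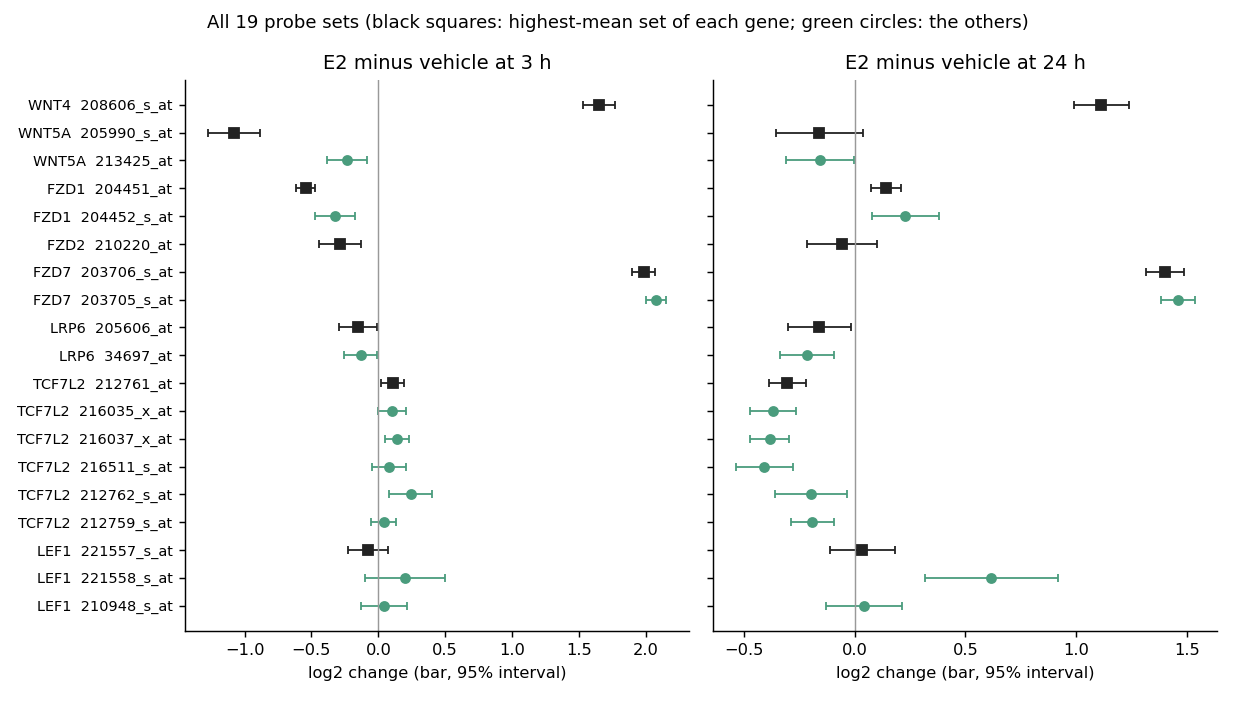
Log2 change with E2 against vehicle at 3 h (left) and 24 h (right) for all 19 probe sets, with 95% intervals; black squares mark the probe set used for each gene. At 24 h the 2 FZD7 sets lie above 0 and the 6 TCF7L2 sets below 0, while 1 dim LEF1 set stands apart at 0.62.

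Counted together, 6 of the 8 genes were called with E2 at 3 h, when 31.1% of all genes were called, and 4 of 8 at 24 h, when 45.7% were. The difference between the times was called for 5 of 8, against 34.3% of all genes. In vehicle from 0 h to 3 h, 3 of 8 were called (WNT5A, FZD1 and TCF7L2), against 20% of all genes. In vehicle from 0 h to 24 h, 0 of 8 were called with limma, against 11.9% of all genes, and 2 of 8 had an unadjusted p under 0.05. Between 3 h and 24 h, 5 of 8 were called in vehicle and 5 of 8 with E2, against 28.9% and 43.8% of all genes. The 24 h share lies close to that of all genes, and comparisons that share a group of arrays are not independent. Over the alternatives, 4 to 7 members were called with E2 at 3 h and 4 to 6 at 24 h. WNT5A and FZD2 had no value where dim genes were left out. The members were chosen with earlier results of these data known, so these shares are descriptions only.

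The order of the group levels separated the genes. For WNT4 and FZD7 the order was E2 at 3 h, E2 at 24 h, vehicle at 3 h, 0 h and vehicle at 24 h. In both genes the E2 groups were separated from each other and from the vehicle at 3 h, which overlapped 0 h. For FZD7 the 24 h vehicle arrays were also all below the 0 h arrays, a change of -0.10 that was not called (limma adjusted p = 0.132), while the second probe set gave -0.15, which was (limma adjusted p = 0.00955). For WNT5A only the highest group, vehicle at 3 h, was separated from the next. FZD1 was highest with vehicle at 3 h, then E2 at 24 h, and lowest with E2 at 3 h, with vehicle at 24 h and 0 h between and overlapping. TCF7L2 was highest in both 3 h groups, which overlapped, and lowest with E2 at 24 h.

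Likeness between genes was measured as the root mean square difference in the log2 changes of the 4 later groups against 0 h, for the 3 genes whose group means spanned 1 or more. The changes of WNT4 were 0.06 with vehicle at 3 h, 1.72 with E2 at 3 h, -0.14 with vehicle at 24 h and 0.98 with E2 at 24 h. Nearest to WNT4 were AMMECR1, at 0.093, then ARHGEF26, DGKZ, PFKFB3 and FGD6, the last at 0.16. FZD7 was the 13th nearest gene to WNT4 among all others, at 0.22, and WNT4 the 8th nearest to FZD7. Nearest to FZD7 were SNX24, at 0.146, then HSPB8, RET, IL17RB, whose probe set may cross-hybridise by its name, and PPIF, at 0.177.

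The WNT5A pattern, a rise in 3 h vehicle without one in 3 h E2, had as nearest genes SLCO4C1 at 0.117, then NAB1, ID1, ATP1B1 and RAP2B, the last at 0.155. FZD1 came 78th, at 0.30, the nearest of the 7 other members. SLCO4C1 changed by 0.78 with vehicle at 3 h and by -0.28 with E2 at 3 h. ID1, an inhibitor of basic helix-loop-helix factors, changed by 0.67 and -0.22. These likenesses rest on 4 group means per gene and share the same arrays, and they are descriptions of pattern alone.

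Across a wider set of 152 WNT pathway genes, 118 were measured. With E2 at 3 h, 20 were higher and 34 lower, so 45.8% were called. Over all genes 13.5% were called higher and 17.6% lower at this time. At 24 h, 23 were higher and 31 lower, also 45.8%, beside 21.5% higher and 24.2% lower over all genes. The balance at 24 h turned with scaling: with arrays centred on their median, 28 of the set were higher and 27 lower, and of all genes 3042 and 2583, in place of 2572 and 2897. The median change of the set was -0.01 at 3 h and 0.01 at 24 h, and that of all genes 0.00 and 0.02, so the changes ran in both directions.

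**Figure D4:**
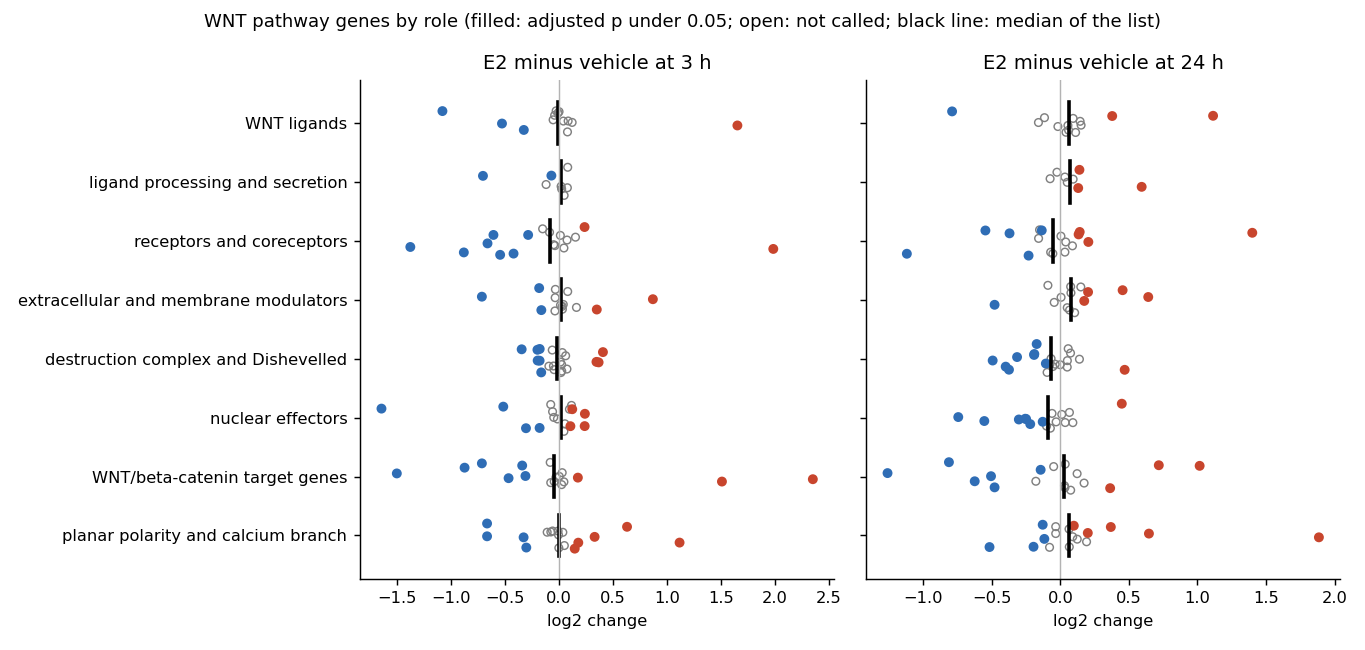
Log2 change with E2 against vehicle at 3 h (left) and 24 h (right) for 118 measured WNT pathway genes, by role; filled points are called (red higher, blue lower), open points are not, and the black line is the list's median. List medians lie between -0.09 and 0.08, and the called genes lie on both sides of 0 in most lists.

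Of 13 measured ligands, 1 was higher (WNT4) and 3 lower at 3 h, and 2 were higher and 1 lower at 24 h. So 30.8% were called at 3 h and 23.1% at 24 h, beside 31.1% and 45.7% of all genes. Of the 13, 6 were dim over all arrays. WNT11, a ligand of the polarity branch, fell by 0.53 at 3 h and by 0.79 at 24 h to a dim level (limma adjusted p = 8.37e-06 and 2.68e-08). WNT7B fell by 0.33 at 3 h (limma adjusted p = 0.00043). WNT6 rose by 0.38 at 24 h (limma adjusted p = 0.0043), with overlapping arrays and 1 of 4 probe sets called. Of 8 genes for ligand processing and secretion, 2 were lower at 3 h and 3 higher at 24 h. GPC4, a heparan sulfate proteoglycan of the cell surface, fell by 0.70 at 3 h and rose by 0.59 at 24 h (limma adjusted p = 3.15e-09 and 3.01e-08). At 24 h the cargo receptors TMED2 and TMED10 rose by 0.13 and 0.14. VPS35, a retromer subunit, changed by -0.07 at 3 h (limma adjusted p = 0.0359), but its only probe set was not called in the fit over all probe sets. With arrays centred on their median, 1 gene of this list was lower at 3 h in place of 2.

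Called Frizzled genes lay in both directions, as did called genes as a whole. Of 9 measured Frizzled genes, 5 were lower and 2 higher at 3 h, and 3 were lower and 4 higher at 24 h. Over all genes 17.6% were lower and 13.5% higher at 3 h, and 24.2% lower and 21.5% higher at 24 h. FZD10 fell by 1.38 at 3 h and by 1.12 at 24 h, both to dim levels (limma adjusted p = 2.41e-11 and 4.52e-10). FZD4, a receptor for WNT ligands and for norrin, fell by 0.88 at 3 h and by 0.55 at 24 h (limma adjusted p = 1.85e-09 and 1.19e-06). FZD5 changed sign like FZD1: it fell by 0.66 at 3 h (limma adjusted p = 1.6e-09; 1 of 2 probe sets called) and rose by 0.13 at 24 h (limma adjusted p = 0.0356; 2 of 2 probe sets). FZD3 fell by 0.37 at 24 h (limma adjusted p = 2.57e-06) and was not called at 3 h. The other higher Frizzled gene at 3 h, FZD9, was dim, and its 24 h call was lost when the arrays were quantile normalized again; it was named after its values were seen. Over the 17 measured receptors and coreceptors, 2 were higher and 7 lower at 3 h, and 4 higher and 5 lower at 24 h. That was 52.9% called at each time, beside 31.1% and 45.7% of all genes.

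Among 14 extracellular and membrane modulators, 10 were dim over all arrays. With E2, 2 were higher and 3 lower at 3 h, and 4 higher and 1 lower at 24 h. That was 35.7% called at each time, beside 31.1% and 45.7% of all genes. TPBG, a membrane protein that restrains beta-catenin signalling, rose by 0.87 and 0.64 at the 2 times (limma adjusted p = 2.81e-14 and 2.68e-12). RNF43, a ubiquitin ligase that removes Frizzled receptors from the membrane, fell by 0.71 and 0.48 (limma adjusted p = 4.37e-11 and 1.29e-08). DKK3 was called higher at both times at a dim level, with 1 of 5 probe sets called. Of 20 genes of the destruction complex and Dishevelled group, 3 were higher and 6 lower at 3 h, and 1 higher and 8 lower at 24 h. Of this group 45.0% were called at each time. CSNK1A1, the kinase that primes beta-catenin for degradation, fell by 0.34 and 0.32 (6 of 7 probe sets called at each time). PPP2R5A, a phosphatase subunit, rose by 0.35 and 0.47. FRAT2, a binder of GSK3, rose by 0.37 at 3 h and fell by 0.11 at 24 h (limma adjusted p = 1.29e-07 and 0.0263). FRAT1, of the same family, fell by 0.16 at 3 h and by 0.49 at 24 h (limma adjusted p = 0.011 and 4.37e-08).

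Of 16 nuclear effectors, 4 were higher and 4 lower at 3 h, and 1 was higher and 7 lower at 24 h. TLE1, a Groucho corepressor that TCF factors recruit, fell by 1.64 at 3 h and by 0.56 at 24 h (limma adjusted p = 3.56e-17 and 4.15e-10; 3 of 3 probe sets). TLE3, of the same family, fell by 0.30 at 3 h and by 0.74 at 24 h (limma adjusted p = 3.47e-05 and 1.23e-10). BCL9, a coactivator of beta-catenin, rose by 0.24 at 3 h, and CTNNBIP1, an inhibitor of the beta-catenin and TCF contact, fell by 0.26 at 24 h.

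Called target genes of the pathway went both ways, as did called genes as a whole. Of 17 measured targets of beta-catenin signalling, 3 were higher and 6 lower at each time. That was 52.9% called, beside 31.1% of all genes at 3 h and 45.7% at 24 h. MYC rose by 2.35 ± 0.09 at 3 h, 5.09-fold (limma adjusted p = 9.56e-14), and CCND1, which encodes cyclin D1, by 1.51 ± 0.06 (limma adjusted p = 2.5e-14). At 24 h they were higher by 1.02 and 0.72 (limma adjusted p = 2.58e-08 and 1.73e-09). Both genes are also well-known estrogen-induced genes. ID2, another inhibitor of helix-loop-helix factors, fell by 1.50 at 3 h and by 0.81 at 24 h (limma adjusted p = 9.32e-16 and 9.42e-12). SOX9 fell by 0.87 at 3 h and by 1.26 at 24 h (limma adjusted p = 7.47e-09 and 2.6e-11). CD44 rose by 0.36 at 24 h (limma adjusted p = 9.79e-10; 8 of 8 probe sets). At 3 h its change of -0.04 was not called (limma adjusted p = 0.253), though 4 of its 8 probe sets were called lower and 1 higher.

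Of 17 genes of the planar polarity and calcium branch, 5 were higher and 4 lower at each time. That was 52.9% called, beside 31.1% of all genes at 3 h and 45.7% at 24 h. The 24 h balance varied with scaling. With arrays centred on their median, 7 were higher and 3 lower at 24 h. When quantile normalized again, 6 were higher and 3 lower. CELSR2, a cadherin of planar polarity, rose by 1.12 at 3 h and by 1.89 at 24 h (limma adjusted p = 9.43e-13 and 3.93e-16), and CELSR1 by 0.63 and 0.65. VANGL1, a membrane protein of the same system, fell by 0.67 at 3 h (limma adjusted p = 2.91e-11). CAMK2G, a calcium-dependent kinase, fell by 0.52 at 24 h (limma adjusted p = 3.19e-08).

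Cell identity and RNA quality were looked at once for all groups. All 10 luminal epithelial markers were above the dim level, with array means of the list from 12.87 to 13.22, lowest on the 3 h E2 arrays at 12.87 to 12.94. With E2 at 3 h, 4 of the 10 were higher (KRT19 by 0.59, XBP1 by 0.36, TFF1 by 0.12 and KRT8 by 0.10) and 3 lower (GATA3 fell by 2.07, FOXA1 by 1.30 and ESR1 by 0.29), with a median change of 0.02. At 24 h, 5 of the 10 were higher and 4 lower, with changes of 0.66 for KRT19, 0.49 for KRT8 and -0.51 for GATA3. Over all genes 31.1% were called at 3 h and 45.7% at 24 h. All 6 measured basal markers were dim on average over the 20 arrays, with list means from 5.27 to 5.59. Among them OXTR moved as WNT5A and FZD1 did at 3 h: it rose by 0.56 in vehicle from 0 h to 3 h, to 6.35, above the dim level, and was lower with E2 by 0.67 (change -0.67; limma adjusted p = 0.000402 and 2.19e-05). MYLK, dim, was higher by 0.31 with E2 at 3 h. At 24 h, 2 of the 6 basal markers were higher with E2 and 0 lower. These were KRT5, by 0.19, and CNN1, by 0.23, both with overlapping arrays. Of 10 stromal markers 6 were dim on average, with list means from 5.71 to 5.89 and COL1A1 and FN1 as the highest, at 8.49 and 9.20. FN1 also rose in vehicle to 3 h, by 0.27, and changed by -0.57 with E2 (limma adjusted p = 0.000587 and 2.21e-08). At 24 h, 3 of the stromal markers were higher with E2 and 2 lower. Of 9 immune and endothelial markers, 7 were dim, with list means from 5.23 to 5.41. Of these, LYZ rose by 0.29 with E2 at 3 h and by 0.88 at 24 h (limma adjusted p = 0.0182 and 1.07e-07) and stayed dim, and PECAM1 fell by 0.26 and 0.42. The difference between the 3′ and 5′ ACTB probe sets, a measure of RNA integrity, was 0.47 at 0 h, 0.32 with vehicle at 3 h, 0.39 with E2 at 3 h, 0.40 with vehicle at 24 h and 0.38 with E2 at 24 h. For GAPDH the same difference was -0.12, -0.12, -0.14, -0.12 and -0.15 in that order of groups. For ACTB the 0 h arrays, at 0.456 to 0.479, lay above all other groups. The 3 h vehicle arrays, at 0.291 to 0.339, lay below all other groups. For GAPDH the 3 h vehicle arrays overlapped the 0 h arrays and lay above the 3 h E2 arrays. The part of RNA integrity and of the marker genes in the changes of the WNT genes was not tested.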

How the data were processed

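RNA of SUM44 cells was measured on Affymetrix human expression arrays. The authors deposited log2 expression per probe set, for which the submitters' processing notes name RMA and affy; versions and parameters are not given in the sources used here. RMA normalizes arrays to like distributions, so a change of total RNA would not show. The number of arrays limits the precision.

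From 22277 probe sets, 62 controls were left out, and 19064 had 1 symbol in the platform annotation, 1043 several and 2108 none. The brightest probe set on average stands for each gene. limma 3.58.1 in R 4.3.3 fitted all 20 arrays with a mean per group and no block (two-sided, Benjamini-Hochberg over 11963 genes, threshold 0.05). All probe sets of the members were read from a second fit over 22215 probe sets. Scripts were tested on simulated data.

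The members and gene lists were chosen with earlier results of these data known. Named beside the members were, per WNT list and time, up to 3 called genes with the smallest p, the 5 nearest genes in the likeness measure, and genes that describe a marker list. Alternatives were the replicate block, other scaling, dim-gene filter, probe set choice, arrays fitted, variance prior, array weights and leaving out each array. Promoter windows are RefSeq's.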

Additional observations from a re-analysis of the deposited data

Results flagged for a closer look

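The effect of E2 differed between 3 h and 24 h, by limma's interaction test, for 5 of the 8 genes. The 24 h effect minus the 3 h effect was -0.54 for WNT4 and -0.58 for FZD7, both still higher with E2 at 24 h, and -0.41 for TCF7L2, which was lower at 24 h. For WNT5A it was 0.92 and for FZD1 0.69. In all 5 genes the vehicle arrays had also fallen between the times. The fall was 0.82 for WNT5A, 0.33 for FZD1, 0.21 for TCF7L2, 0.20 for WNT4 and 0.12 for FZD7.

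Within groups, 4 single arrays stood apart from the other 3 by Dixon's gap test, among 40 groups of 4 checked; chance flags about 1 in 20 groups. FZD1 was highest on array B of the 0 h group at 9.66 and lowest on array D of the 24 h vehicle group at 9.62. LRP6 was highest on array C of the 3 h E2 group at 8.13, and LEF1 on array D of the 24 h E2 group at 6.52.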

How the results depend on the processing

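The E2 changes of WNT4 and FZD7 at both times, of WNT5A, FZD1 and FZD2 at 3 h and of FZD1 and TCF7L2 at 24 h kept direction and call in every alternative that gave a value, the other probe sets included. WNT5A and FZD2 have no value where dim genes were left out. In vehicle from 0 h to 24 h, 1 member (FZD7) was called where the arrays were quantile normalized again and where all probe sets of a gene were averaged. LRP6 at 24 h was called with the replicate block (adjusted p = 0.0352), without dim genes, with a trended prior and as a mean of probe sets (0.0477, 0.0353 and 0.0085), and TCF7L2 at 3 h was lost with it (adjusted p = 0.0531); the block changed no other call of the members and gave 3665 called genes at 3 h in place of 3720. Of the same-letter correlations between arrays, 6 of 40 were over 0.1, as were 18 of 120 between different letters. The highest was 0.37 for the same letter and 0.20 for different letters, and 7 of 20 arrays correlated best with their own letter. Whether the letters pair some of the arrays was not settled.

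Direction changed only in values that were not called. LRP6's difference between the effects was 0.0041 with centred arrays and also when quantile normalized again, 0.0029 with array weights and -0.0497 to 0.0506 when 1 array was left out. LEF1 at 24 h was -0.0051 when quantile normalized again and -0.0186 to 0.0640 with an array left out; at 3 h it was 0.0551 as a mean of probe sets and 0.1989 and 0.0422 on its other sets. In vehicle from 0 h to 24 h, FZD2 was 0.0064 when quantile normalized again, FZD1 was -0.0549 as a mean and -0.1471 on its other set, and TCF7L2 -0.0842 on 1 set. LEF1 there was -0.1057 as a mean, -0.3288 and -0.0188 on its other sets and -0.0005 to 0.0775 with an array left out, and LRP6 -0.0431 to 0.0101. On other sets, LEF1 was -0.1053 in vehicle from 0 h to 3 h and -0.1983 between the E2 groups, where WNT5A was -0.0950. The cause was not tested. WNT5A and FZD2 were dim in every group, and 2 of the 3 LEF1 probe sets were dim on average over the arrays.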
